A study of Arabidopsis thaliana with 45 samples.

Results

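In non-dormant seeds of Arabidopsis thaliana, 100 probe sets rose strongly between 6 h and 24 h of imbibition in water and stood lowest in cordycepin, relative to water, after 24 h. They were chosen from group means of total RNA of non-dormant seeds. A probe set had to rise by at least 2 on the log2 scale from 6 h to 24 h in water and to reach a mean of at least 6 at 24 h. Of 27827 probe sets, 682 met both limits, and they were ranked by the cordycepin mean minus the water mean at 24 h. The 100 with the most negative difference are the members described here, and the other 582 rising probe sets serve as a comparison.

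The seeds were of the line NILDOG1-Cvi, which carries the Cvi allele of the dormancy gene DOG1 in the Landsberg erecta background, and all groups share this genotype. Dormant and non-dormant seeds were imbibed in water or in cordycepin for 6 h or 24 h, and total RNA (24 arrays) and polysomal RNA (21 arrays) were measured separately, which gives 16 groups. Groups held 3 arrays. The exceptions, with 2 arrays each, were 3 polysomal groups at 24 h, namely dormant seeds in either solution and non-dormant seeds in cordycepin. A replicate was a bulk of seeds from 8 plants, per the labels. How much cordycepin was used and how seeds were made non-dormant is not stated in the labels. The labels do not say whether total and polysomal RNA of the same number came from the same bulk.

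Cordycepin is an adenosine analogue that lacks the hydroxyl group needed to extend an RNA chain, and it is used to stop new transcription. A dry seed already stores many transcripts. Several of the members have known roles in young seedlings. ER bodies are spindle-shaped compartments of the endoplasmic reticulum in Brassicaceae epidermal cells that hold beta-glucosidases such as PYK10. Indole glucosinolates are sulphur-containing defence compounds made from tryptophan, and beta-glucosidases can activate them. Xyloglucan and pectin enzymes remodel cell walls as the embryo expands, and cuticle enzymes build the water barrier of the new epidermis.

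The values are log2 expression from RMA, so a difference of 1 is a 2-fold difference, and they are relative to the other transcripts on an array. Array medians lay between 3.86 and 4.32 and lower quartiles between 2.24 and 2.92. A level at or under 2.92 is called near background here. Replicates of a group correlated at 0.958 to 0.986. All 8 transcripts listed as markers of the maturing seed (cruciferins, a napin, oleosins and Em proteins) were abundant in every group, with a lowest group mean of 8.67. Precision is limited by the 2 or 3 arrays of a group, and in whole seeds fewer cells of a type and less RNA per cell cannot be told apart.

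The arrays that chose the members are described first, without a test. In total RNA of non-dormant seeds the members had a median of 3.72 at 6 h and 7.04 at 24 h in water, against 5.64 at 24 h in cordycepin. Their rise in water had a median of 3.27 (2.01 to 7.15), and cordycepin minus water at 24 h had a median of -1.39, from -3.93 for PBP1 to -1.09 for SRF8. Of all 682 rising probe sets, 629 stood lower in cordycepin than in water, 118 by at least 1, with a median of -0.44. The rank limit therefore cuts through a continuum. AT2G46420 (-1.093), GPAT4 (-1.089) and SRF8 (-1.085) lay just inside it, and AT3G47650 (-1.083), AT2G24300 (-1.083) and SMT1 (-1.076) just outside. In the same RNA at 6 h the median of cordycepin minus water over the members was -0.10.

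**Figure D1:**
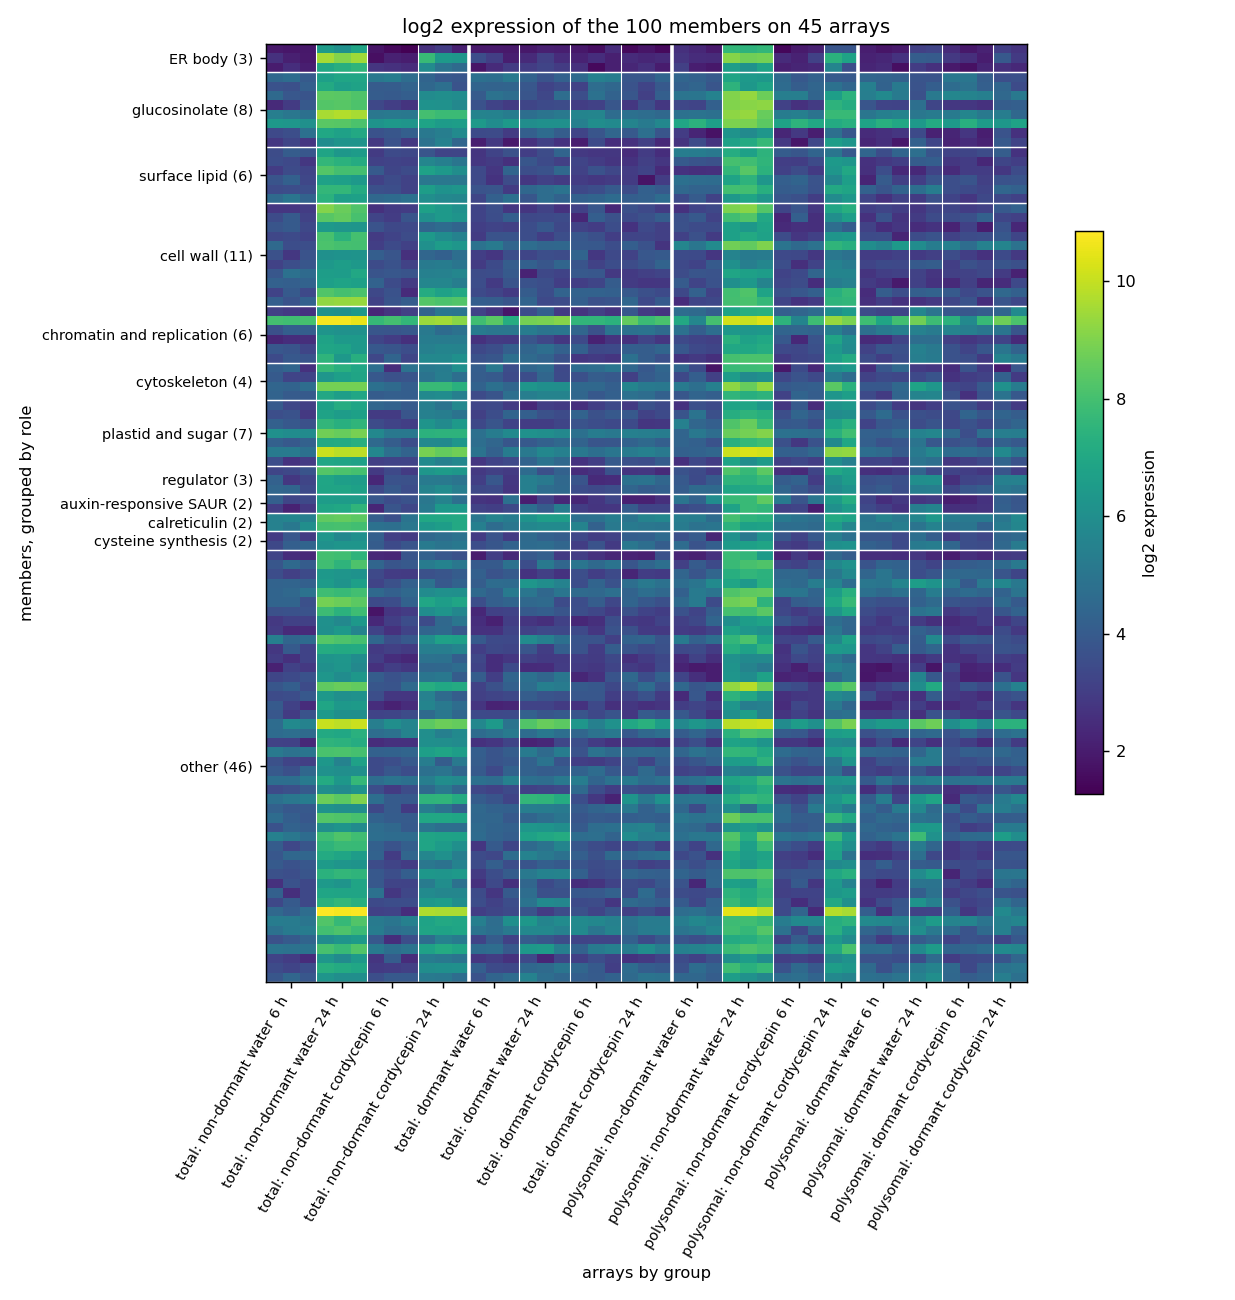
log2 expression of the 100 members (rows, grouped by role, with the number of members in brackets) on all 45 arrays (columns, grouped by RNA type, dormancy, treatment and time). The 24 h arrays of non-dormant seeds form the bright columns, those in water brighter than those in cordycepin, and the dormant 24 h arrays are much closer to the 6 h arrays.

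**Figure D2:**
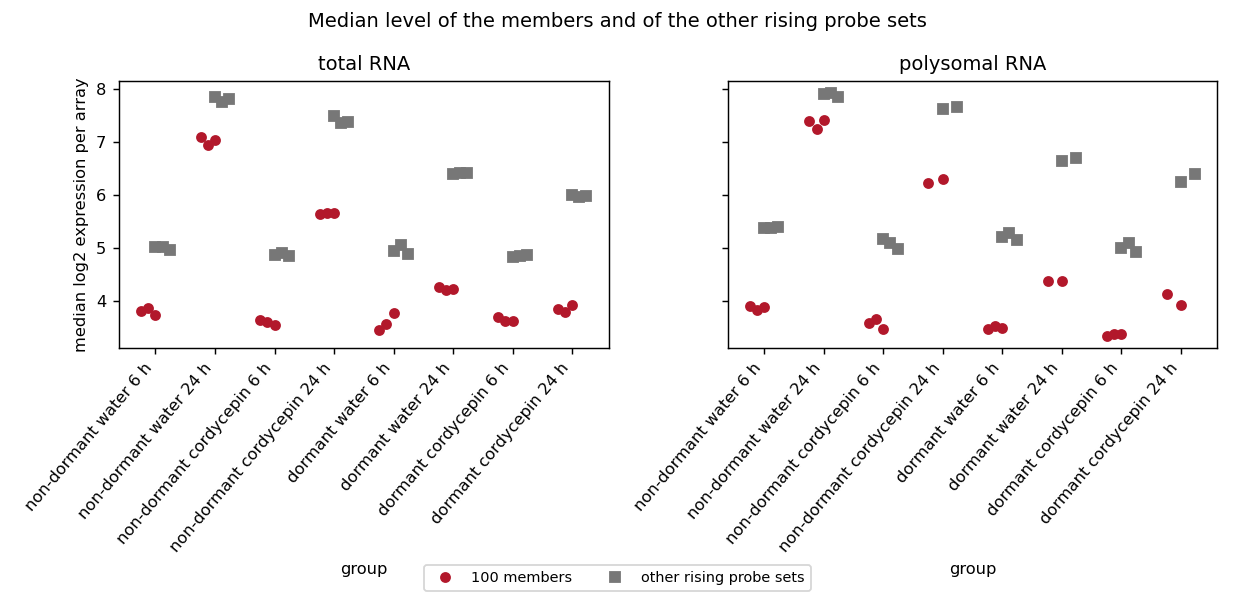
Median log2 expression per array of the 100 members (red circles) and of the 582 other rising probe sets (grey squares), for total RNA (left) and polysomal RNA (right), 1 symbol per array. In polysomal RNA of non-dormant seeds at 24 h the members' array medians were 7.25 to 7.42 in water and 6.23 to 6.30 in cordycepin.

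Polysomal RNA, transcripts bound by several ribosomes, gave arrays that had no part in choosing the members. It may come from the same bulks as the total RNA, and a rise in water was favoured by the choice. All 100 members were higher at 24 h than at 6 h in water there (limma with Benjamini-Hochberg adjustment, adjusted p under 0.05). The background rate of such calls was 17.8% of all probe sets, and 580 of the 582 other rising probe sets were called too. The members' median rise was 3.46, with a range from 1.40 for AT1G31150 to 6.34 for PYK10. PYK10 measured 2.76, 2.48 and 2.46 on the 6 h arrays and 9.12, 8.77 and 8.83 on the 24 h arrays (6.34 ± 0.33, SE, adjusted p = 1.54e-17). G-TMT, a tocopherol methyltransferase of vitamin E synthesis, rose by 5.91 ± 0.26 (adjusted p = 1.49e-19), and the 24 h arrays all lay above the 6 h arrays for 99 of the 100 members, as they did for 99.7% of the other rising probe sets and 19.3% of all probe sets. PYK10 at 6 h was near background, as were 11 of the members as group means, so the size of such a rise has a soft lower end.

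In polysomal RNA at 24 h, 45 of the 100 members were lower in cordycepin than in water and none was higher (limma, Benjamini-Hochberg adjusted p under 0.05). Over all probe sets 1.25% were called lower and 1.44% higher, and of the 582 other rising probe sets 12 (2.06%). The members' median difference was -1.12, against -0.27 for the other rising probe sets and 0.01 for all probe sets. All 100 members had a difference below 0, from -3.77 for PBP1 to -0.10 for AT1G31150, and 62 were lower by at least 1, against 9 of the other rising probe sets and 465 of all. The cordycepin arrays all lay under the water arrays for 85 members, for 182 (31.3%) of the other rising probe sets and for 12.1% of all probe sets. The members were chosen for the same difference in total RNA, so a lower level in cordycepin was favoured by the choice. Total and polysomal RNA may come from the same bulks, and the part of the choice in these counts was not tested. This comparison shares its water arrays with the rise in polysomal RNA. With only the compared arrays in the fit 25 members were called, and 27 and 21 without replicate 1 or replicate 2 of the cordycepin group, which leaves 1 cordycepin array.

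Seed storage and maturation transcripts moved with this comparison in the other direction. Summed over the 8 listed genes, the log2 level ran from 77.44 to 80.35 on the polysomal water arrays and from 84.28 to 84.95 on the cordycepin arrays, and 5 of the 8 were called higher in cordycepin. In total RNA the sums were 80.48 to 82.58 and 85.08 to 86.44. The same 8 genes were all called lower with time in non-dormant seeds, in water (median -1.66) and in cordycepin (median -1.07). The part of these shifts in the members' differences was not tested. None of the 5 endosperm or 7 seed coat marker genes was called in the polysomal comparison. Their sums overlapped, at 22.34 to 22.99 in water and 22.66 to 22.70 in cordycepin for endosperm and at 18.88 to 20.55 and 18.88 to 20.13 for seed coat. In both groups 3 of the 5 endosperm genes and 6 of the 7 seed coat genes were near background.

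**Figure D3:**
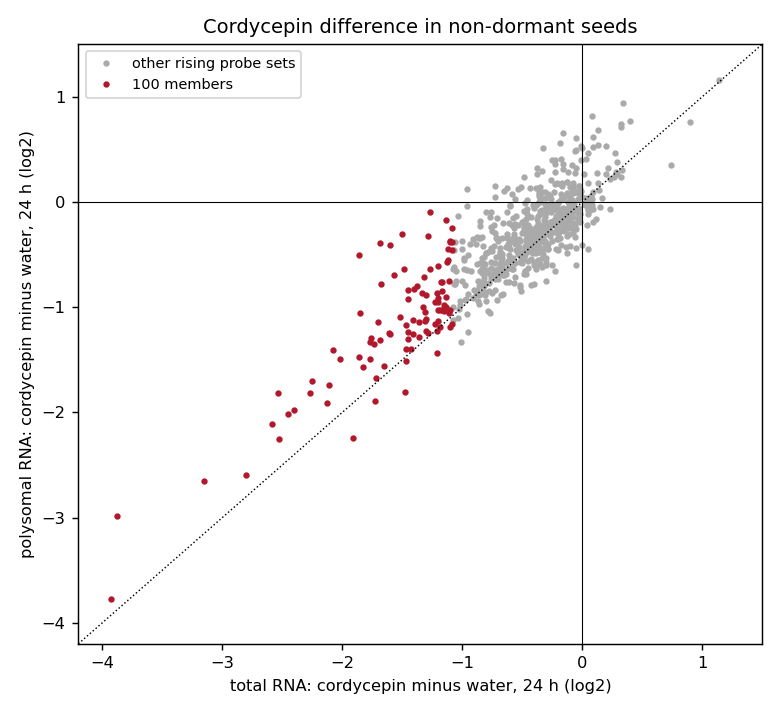
Cordycepin minus water at 24 h in non-dormant seeds (log2), in total RNA (horizontal axis, which chose the members) and in polysomal RNA (vertical axis), for the 100 members (red) and the 582 other rising probe sets (grey). Solid lines mark 0 and the dotted line equal differences. All members lie below 0 on the vertical axis, and most lie above the dotted line, where the polysomal difference is the smaller one. The members were picked as the extremes of the horizontal axis, which alone favours a smaller difference on the vertical axis.

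Across the 100 members the total and polysomal differences correlated at 0.83, and across the other rising probe sets at 0.74. These are descriptions, since genes of 1 set of arrays are not replicates.

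The 3 members that make up or attend ER bodies all fell. They are PYK10, a beta-glucosidase and the main protein of ER bodies, NAI2, which is needed to form them, and PBP1 (PYK10-binding protein 1), a jacalin-related lectin that assembles with PYK10 when tissue is damaged. PBP1 held the lowest rank in total RNA, with 6.53, 6.07 and 6.87 in water and 2.58, 2.99 and 2.11 in cordycepin at 24 h. In polysomal RNA it measured 7.63, 7.45 and 7.61 in water and 3.79 and 3.80 in cordycepin. The total RNA values put it at rank 1 and carry no test. The polysomal arrays were far apart too, with a difference of -3.77 ± 0.25 (SE, adjusted p = 1.57e-12).

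PYK10 stood at 9.12, 8.77 and 8.83 in water and at 7.37 and 6.81 in cordycepin in polysomal RNA (-1.82 ± 0.36, adjusted p = 0.00192). Its level in cordycepin was still far above the 6 h level, and the 2 treatments did not overlap. NAI2 measured 6.60, 6.11 and 6.80 in water against 5.60 and 3.59 in cordycepin (-1.91 ± 0.41, adjusted p = 0.00384). The 2 cordycepin arrays of NAI2 differed widely, and both lay under all water arrays. Without replicate 1 of the cordycepin group the NAI2 difference was -2.91 (limma, adjusted p = 0.000111). Without replicate 2 of the cordycepin group neither NAI2 (-0.90, adjusted p = 0.523) nor PYK10 (-1.54, adjusted p = 0.105) was called by limma, and with only the compared arrays in the fit NAI2 was not (adjusted p = 0.109).

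Other genes of the ER body system that are no members were counted from a list of 54 beta-glucosidase and ER body genes matched by symbol and synonym, which holds PBP1 and NAI2 but not PYK10. In polysomal RNA 6 of the 54 were lower and 3 higher in cordycepin at 24 h, and the list's median was 0.10. NAI1, a transcription factor that controls ER body genes, rose by 3.22 ± 0.27 with time and was lower by -1.42 ± 0.31 in cordycepin (adjusted p = 5.53e-12 and 0.00448). The lectin gene JAL34 was lower by -3.23 ± 0.30 (adjusted p = 3.83e-09), and JAL31, a close relative of PBP1, by -1.16 ± 0.26 (adjusted p = 0.00634). BGLU40 was the remaining one (-1.36 ± 0.34, adjusted p = 0.017). All 4 missed the level limit of 6 in total RNA, with 24 h water means of 5.13 for NAI1, 5.31 for JAL34, 1.97 for JAL31 and 4.12 for BGLU40. JAL31 and BGLU40 also missed the rise limit of 2 there, with rises of 0.23 and 1.67. In total RNA JAL31 was near background at 24 h in water, and its cordycepin difference was -0.33. No source used here says whether the probes of PBP1 and JAL31 separate these related genes.

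Of the 8 members tied to glucosinolate synthesis, 7 fell in polysomal RNA. CYP79B2, which turns tryptophan into indole-3-acetaldoxime and so starts indole glucosinolate synthesis, stood in cordycepin at its 6 h level. It measured 4.41, 4.25 and 3.99 at 6 h in water, 6.86, 6.46 and 6.35 at 24 h in water and 3.97 and 3.95 at 24 h in cordycepin. The 24 h treatments differed by -2.60 ± 0.27 (SE, adjusted p = 8.46e-08) and did not overlap. From 6 h to 24 h in cordycepin the change was -0.26 ± 0.27 (adjusted p = 0.553).

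Further enzymes of glucosinolate synthesis also differed. CYP83B1, which oxidises the aldoxime, stood at 9.23, 9.34 and 8.62 in water and at 7.73 on both cordycepin arrays (-1.33 ± 0.25, adjusted p = 0.000914). SUR1, the C-S lyase, measured 8.97, 8.93 and 8.45 in water and 7.14 and 7.31 in cordycepin (-1.56 ± 0.26, adjusted p = 0.000183). SOT17, a sulfotransferase of the last step of core synthesis, measured 7.48, 6.35 and 6.82 against 4.84 and 4.43 (-2.25 ± 0.37, adjusted p = 0.000182). For all 3 genes every cordycepin array lay under every water array, while SUR1 and SOT17 did not rise detectably from 6 h to 24 h in cordycepin (0.15 ± 0.26 and 0.27 ± 0.37, adjusted p = 0.75 and 0.669).

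AKN2, an APS kinase that makes the activated sulphate used by sulfotransferases, measured 9.04, 9.33 and 8.69 in water and 6.64 and 7.43 in cordycepin (-1.98 ± 0.40, adjusted p = 0.00179). IGMT5, an indole glucosinolate methyltransferase, was lower by -1.82 ± 0.35 (adjusted p = 0.00136), and CYP81F4, which modifies the indole ring, by -1.81 ± 0.41 (adjusted p = 0.00799). These genes did rise in cordycepin, IGMT5 by 4.41 ± 0.35, AKN2 by 2.01 ± 0.40 and CYP81F4 by 1.89 ± 0.41 (adjusted p = 2.78e-12, 0.000106 and 0.000407). The call of AKN2 was lost without replicate 1 of the cordycepin group (adjusted p = 0.109) and that of IGMT5 without replicate 2 (adjusted p = 0.0595). MYB34, a transcription factor that promotes indole glucosinolate genes, gave 6.76, 7.12 and 7.68 in water and 6.62 and 6.23 in cordycepin. Its arrays did not overlap, but the difference of -0.76 ± 0.40 did not pass (adjusted p = 0.466).

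A list of 19 glucosinolate synthesis genes, of which 5 are members, put these beside the rest of the pathway. In polysomal RNA 7 of the 19 were lower and none higher in cordycepin at 24 h, and 10 rose and 1 fell from 6 h to 24 h in water. The list's median cordycepin difference was -0.41. CYP79B3, which shares the step of CYP79B2, was lower by -2.36 ± 0.34 (adjusted p = 2.77e-05) and missed membership with a total RNA mean of 5.94, just under the limit. UGT74B1, the glucosyltransferase, was lower by -1.24 ± 0.18 (adjusted p = 1.9e-05) and SOT16 by -0.78 ± 0.17 (adjusted p = 0.00504). CYP79F1, CYP83A1, MAM1, MYB28 and MYB29, of the methionine-derived branch, did not pass. CYP79F1 (1.55), CYP83A1 (2.58), MAM1 (1.49), MYB28 (2.31) and MYB29 (2.75) were near background in total RNA in water at 24 h. No difference could be seen for these genes at such levels. CYP79F2 (3.66) and BCAT4 (3.27), also of that branch, stood above near background and did not pass either (0.79 and 0.31, limma, adjusted p = 0.468 and 0.881). CYP79F2 was the gene of the list that fell with time (-1.01 ± 0.37, limma, adjusted p = 0.0314). With so many genes of that branch near background, the 2 branches cannot be compared here.

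**Figure D4:**
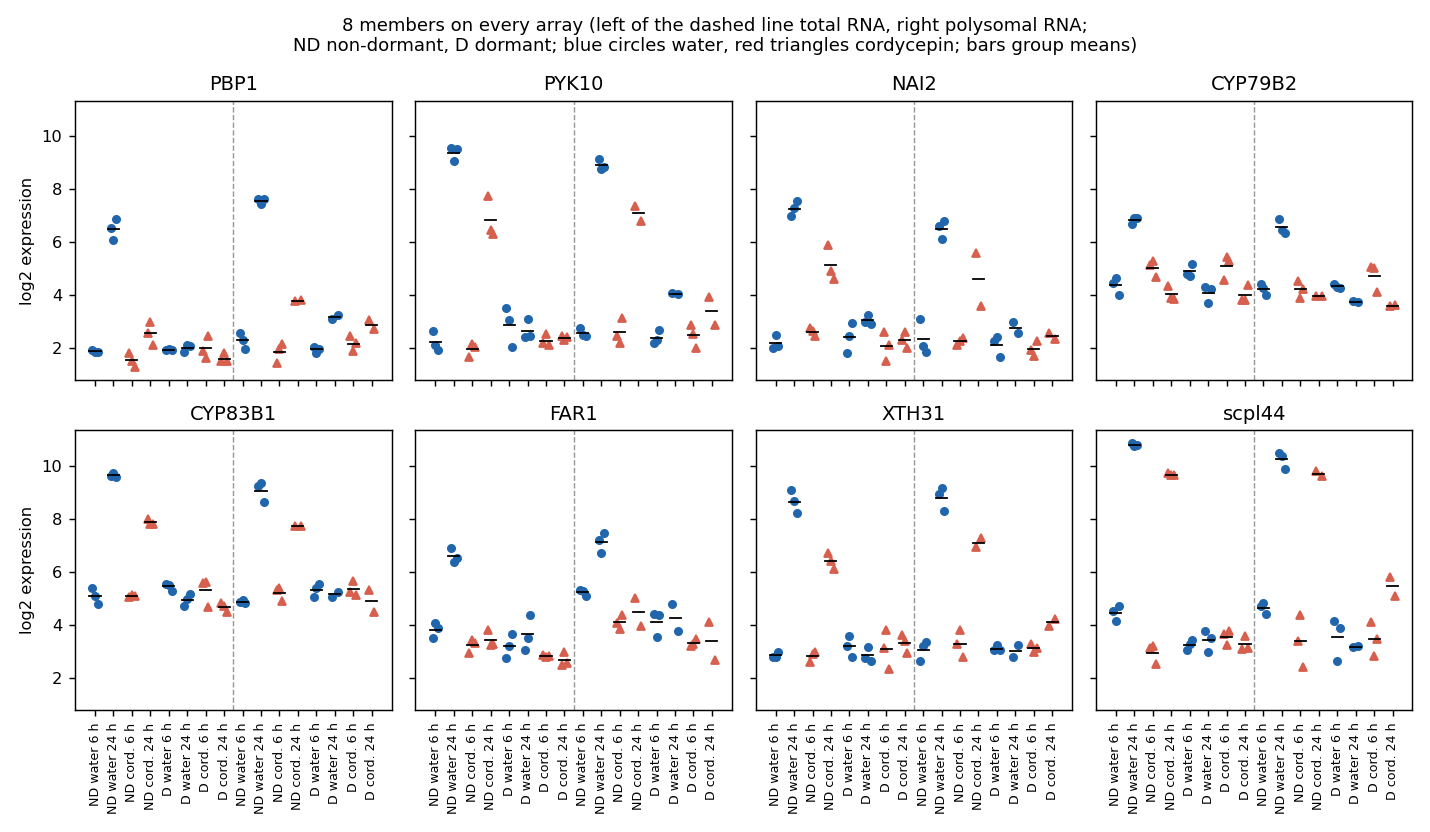
log2 expression of 8 members on every array, in total RNA (left of each dashed line) and polysomal RNA (right). ND is non-dormant, D dormant and cord. cordycepin. Blue circles are water arrays, red triangles cordycepin arrays and black bars group means. PBP1 is above 6 only on the non-dormant 24 h water arrays, CYP79B2 is back at 6 h levels in cordycepin, and scpl44 is above 9 on every non-dormant 24 h array.

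Among 6 members of surface lipid metabolism, FAR1 and LACS2 fell. FAR1, a fatty acyl reductase that makes primary alcohols for suberin, measured 7.21, 6.70 and 7.46 in water and 5.01 and 3.94 in cordycepin in polysomal RNA at 24 h. The difference was -2.65 ± 0.37 (SE, adjusted p = 1.21e-05) and the groups did not overlap. Its 6 h arrays stood at 5.32, 5.28 and 5.10 in water and at 4.07, 3.84 and 4.35 in cordycepin. That 6 h difference of -1.15 ± 0.33 did not pass (limma, adjusted p = 0.244). From its 6 h level in cordycepin the change to 24 h in cordycepin was 0.39 ± 0.37 (limma, adjusted p = 0.495). LACS2, an acyl-CoA synthetase of cutin synthesis, measured 8.04, 7.90 and 7.54 against 6.42 and 6.25 (-1.49 ± 0.24, adjusted p = 0.000121). The desaturase gene ADS1 (-1.14, adjusted p = 0.11), the transporter gene ABCG15 (-0.75, adjusted p = 0.132), the lipid transfer protein gene LTPG2 (-0.70, adjusted p = 0.475) and the cutin acyltransferase gene GPAT4 (-0.38, adjusted p = 0.797) did not pass.

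The 11 cell wall members were mixed: 4 fell, and the median difference was -0.61. XTH31, a xyloglucan endotransglucosylase/hydrolase family gene, measured 8.95, 9.15 and 8.28 in water and 6.92 and 7.26 in cordycepin (-1.70 ± 0.33, adjusted p = 0.00118). CAD9, a cinnamyl alcohol dehydrogenase family gene, measured 6.73, 6.35 and 6.83 against 4.71 and 4.08 (-2.24 ± 0.29, adjusted p = 5.21e-06). Neither gene overlapped between treatments. MIOX2, a myo-inositol oxygenase that feeds sugar precursors to the wall, was lower by -1.35 ± 0.33 and LAC8, a laccase gene, by -1.13 ± 0.32 (adjusted p = 0.0163 and 0.0421).

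The pectin methylesterase gene PME3 did not pass in polysomal RNA. It measured 8.0, 8.10 and 7.64 in water and 7.51 and 7.59 in cordycepin, a difference of -0.37 ± 0.32 (adjusted p = 0.788), after standing at 2.50, 3.28 and 3.35 at 6 h. The methylesterase genes PMEPCRA (-0.51) and PME44 (-0.61) and the SKU5 family members SKU5 (-0.32), sks4 (-0.39) and sks5 (-0.17) did not pass either (adjusted p from 0.549 to 0.955). BXL2, a beta-xylosidase family gene, was at -1.41 ± 0.45 (adjusted p = 0.0837) and passed with array weights (adjusted p = 0.0413) and with the replicate number as a block within RNA type (adjusted p = 0.0189). In their families few genes were called for cordycepin. Of 32 measured XTH genes, 1 (XTH31) was lower and 1 (XTH25) higher in cordycepin, while 11 rose and 5 fell with time. A list of 37 pectin-related genes also holds inhibitor genes such as PMEI1 and PGIP1 and lacks PMEPCRA. In that list 1 was lower and none higher in cordycepin, and 8 rose and 5 fell with time.

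Other role groups were chromatin and replication (6 members), the cytoskeleton (4), SAUR genes (2), regulators (3) and plastid and sugar genes (7). Of the 6 chromatin and replication members 1 fell, ROS4, a histone acetyltransferase gene of active DNA demethylation (-1.25 ± 0.29, adjusted p = 0.00814). MCM3, a subunit of the replicative helicase, measured 6.96, 6.96 and 7.21 in water and 6.47 and 5.87 in cordycepin (-0.87 ± 0.27, adjusted p = 0.0773). The replication protein A genes AT3G52630 (-1.19, adjusted p = 0.0534) and RPA70D (-0.64, adjusted p = 0.498), histone H4 gene HIS4 (-1.05, adjusted p = 0.412) and histone H3.1 gene AT1G09200 (-0.84, adjusted p = 0.317) did not pass. In the list of 37 DNA replication and histone genes 1 was lower and none higher in cordycepin, and 22 rose and 5 fell with time.

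MAP65-2, which bundles microtubules (-1.16 ± 0.29, adjusted p = 0.0159), and LNG1, which promotes longitudinal cell expansion (-1.25 ± 0.36, adjusted p = 0.0472), fell. TUB6, a beta-tubulin gene, was at -0.98 ± 0.36 (adjusted p = 0.177) and the actin gene ACT11 at -1.57 ± 0.65 (adjusted p = 0.272, and 0.0151 with only the compared arrays in the fit). Of 15 tubulin genes 12 rose with time and 1 was lower in cordycepin. Neither SAUR gene, of a family that auxin induces rapidly, passed: SAUR3 (AT4G34790) was at -1.12 ± 0.47 and SAUR50 (AT4G34760) at -1.03 ± 0.39 (adjusted p = 0.265 and 0.196).

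Of the plastid and sugar genes 4 of 7 fell. PSBX, a small photosystem II subunit, measured 8.65, 8.83 and 9.07 in water and 7.34 and 7.91 in cordycepin (-1.23 ± 0.27, adjusted p = 0.00481). PSBTN, another photosystem II protein gene (-1.23), the triose phosphate translocator gene APE2 (-1.40) and DIN10, a dark-inducible gene of the raffinose synthase family (-1.13), were lower as well (adjusted p = 0.0297, 0.0276 and 0.0266). The sucrose transporter gene SUC1 (-0.41), the glucan phosphorylase gene PHS1 (-0.76) and G-TMT (-0.95) did not pass (adjusted p = 0.793, 0.227 and 0.0622). Among 83 photosynthesis and chlorophyll genes 5 were lower and none higher in cordycepin, and 30 rose and 9 fell with time. Of the regulators the zinc finger homeodomain gene HB31 (-1.29 ± 0.32) and the AT-hook gene AHL18 (-1.03 ± 0.29) fell (adjusted p = 0.0154 and 0.0395), and RPB5C, an RNA polymerase subunit gene, was at -1.26 ± 0.40 (adjusted p = 0.0901).

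The calreticulin genes CRT1a (-0.64) and CRT1b (-0.87) and the cysteine synthase genes OASC (-0.71) and CYSD1 (-0.57) did not pass (adjusted p from 0.139 to 0.523). The remaining 46 members were put in no role group, and 20 of them fell. AT5G45670, second in rank and without a gene name in the reference table, measured 7.79, 7.57 and 6.50 in water and 4.50 and 4.11 in cordycepin (-2.99 ± 0.42, adjusted p = 1.67e-05). PLAT2, a PLAT domain protein gene, measured 7.77, 8.07 and 8.23 against 5.72 and 6.10 (-2.11 ± 0.34, adjusted p = 0.000115). CB5-C, a cytochrome b5 isoform gene, measured 7.29, 7.58 and 7.42 against 5.08 and 5.73 (-2.02 ± 0.25, adjusted p = 1.36e-06). For these 3 genes the treatments did not overlap.

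Smaller falls were seen for APL3, a subunit of the starch precursor enzyme ADP-glucose pyrophosphorylase (-1.67), the mitochondrial NAD(P)H dehydrogenase gene NDB1 (-1.44), the plant defensin family gene LCR69 (-1.40), the amino acid permease gene AAP6 (-1.30), the glutathione transferase gene GSTU20 (-1.04) and VTC4, of ascorbate synthesis (-0.85). Their adjusted p ran from 0.000214 to 0.0366. At the other end, the serine carboxypeptidase-like gene scpl44 measured 10.47, 10.37 and 9.88 in water and 9.79 and 9.60 in cordycepin (-0.55 ± 0.38, adjusted p = 0.678). Its 2 cordycepin arrays lay just under the water arrays, and its cordycepin mean of 9.69 was the highest of the 100 members in the drug. AT1G31150 (-0.10), DRT100 (-0.25) and AT5G51560 (-0.31) showed almost none.

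Most members still rose between 6 h and 24 h in cordycepin. In polysomal RNA 93 of the 100 were higher at 24 h than at 6 h in the drug and none was lower. Over all probe sets 15.1% were higher and 13.9% lower, and 576 of the 582 other rising probe sets were higher. The median rise was 2.57, against 2.41 for the other rising probe sets. This comparison shares its 24 h arrays with the cordycepin comparison above, and in water the medians were 3.46 and 2.34. The largest rises in the drug belonged to scpl44, with 3.40, 4.38 and 2.42 at 6 h and 9.79 and 9.60 at 24 h (6.29 ± 0.38, SE, adjusted p = 4.45e-15), and to G-TMT (4.96 ± 0.29, adjusted p = 1.1e-15). The 7 that did not pass were CYP79B2, SUR1, SOT17 and FAR1, given above, and AT2G25980 (0.29 ± 0.37), ROS4 (0.70 ± 0.29) and AT1G31150 (1.04 ± 0.47), with adjusted p of 0.643, 0.0651 and 0.0974.

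At 6 h no member was called for cordycepin in the comparisons tested, polysomal RNA of non-dormant seeds and total RNA of dormant seeds. In polysomal RNA of non-dormant seeds limma called 0 members lower and 0 higher (0.0216% and 0.00359% of all probe sets), with 21 lower at an unadjusted p under 0.05, beside 128 (22.0%) of the other rising probe sets and 4.1% of all. Array weights gave 6 calls and the replicate block within RNA type 2. The median of cordycepin minus water was -0.19, against -0.26 for the other rising probe sets. In total RNA of dormant seeds at 6 h limma called 0 members lower and 0 higher (0.097% and 0.104% of all probe sets), with 9 lower at an unadjusted p under 0.05, beside 82 (14.1%) of the other rising probe sets and 5.12% of all, and the median was 0.02. Quantile normalization gave 2 calls there, while a filter on probe sets with a mean of at least 4 over all arrays gave 1, as did the replicate block within RNA type. In total RNA of non-dormant seeds, which shares its water arrays with the rule and carries no test, the members' median was -0.10 (-1.51 to 0.77). The most negative of the 100 were scpl44 (-1.51) and CRT1a (-1.29). Polysomal RNA of dormant seeds at 6 h was not compared. Most members were low at this time, with medians of 3.38 to 3.82 over the members in the 6 h groups.

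Far from all members rose in dormant seeds. In total RNA of dormant seeds in water 32 of the 100 members were higher and 2 lower at 24 h than at 6 h (limma, adjusted p under 0.05). Over all probe sets 9.61% were called higher and 8.51% lower, and of the other rising probe sets 442 of 582 (75.9%) were higher. The median change was 0.49 for the members and 1.40 for the others. In polysomal RNA 41 members were higher and 1 was lower (7.94% and 6.41% of all probe sets, and 449 or 77.1% of the others higher), with medians of 0.67 and 1.43, and 26 members, 409 (70.3%) of the others and 5.79% of all probe sets were called higher in both RNA types. The members were chosen in non-dormant seeds, and a difference between them and the other rising probe sets was not tested, nor was an interaction of time with dormancy.

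**Figure D5:**
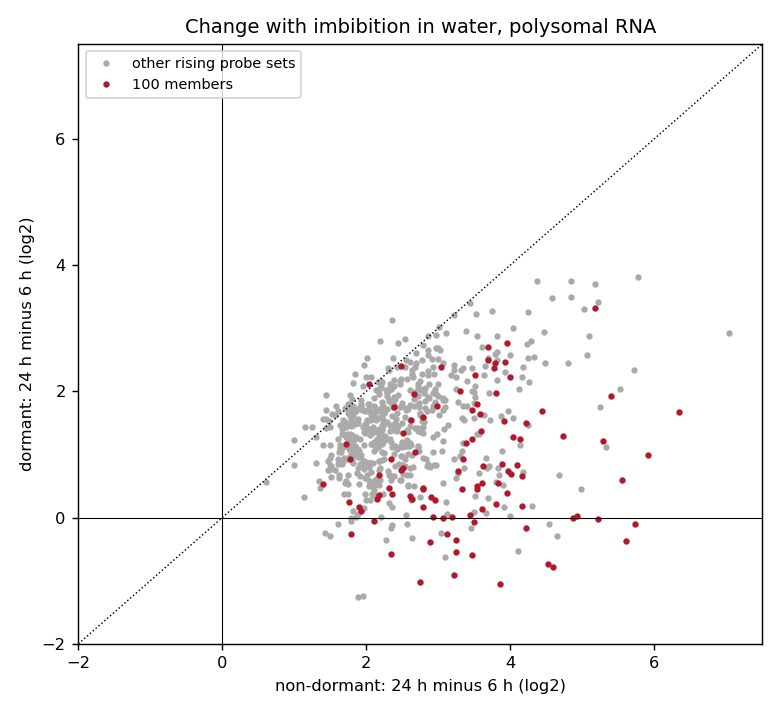
Change from 6 h to 24 h in water in polysomal RNA (log2), in non-dormant seeds (horizontal axis) and dormant seeds (vertical axis), for the 100 members (red) and the 582 other rising probe sets (grey). Solid lines mark 0 and the dotted line equal changes. Nearly all points lie below the dotted line, and many members lie near 0 on the vertical axis.

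The members that rose most in dormant seeds were not those of the ER body or of glucosinolate synthesis. AT1G19376, annotated as a small nucleolar RNA, measured 4.04, 3.76 and 3.24 at 6 h and 7.62, 7.54 and 7.16 at 24 h in total RNA of dormant seeds (3.76 ± 0.40, SE, adjusted p = 4.61e-09). LCR69 rose from 5.69, 6.44 and 4.93 to 8.24, 8.63 and 8.44 (2.75 ± 0.30, adjusted p = 7.34e-09), and the ROP interactive partner gene RIP2 rose by 2.62 ± 0.32 (adjusted p = 1.1e-07). In polysomal RNA SBP3, a selenium-binding protein gene, rose by 3.32 ± 0.36 and GSTU20 by 2.76 ± 0.26 (adjusted p = 1.25e-08 and 1.02e-09). The 6 h and 24 h arrays of AT1G19376 and LCR69 did not overlap.

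By contrast PBP1 stayed near background in total RNA of dormant seeds, with 1.91, 1.97 and 1.91 at 6 h and 1.87, 2.10 and 2.07 at 24 h (0.08 ± 0.22, adjusted p = 0.849). PYK10 measured 3.52, 3.06 and 2.06 and then 2.43, 3.08 and 2.47 (-0.22 ± 0.33, adjusted p = 0.712). In polysomal RNA of dormant seeds both rose a little, PBP1 by 1.21 ± 0.25 and PYK10 by 1.67 ± 0.36 (adjusted p = 0.000544 and 0.00107). CYP79B2 fell in total RNA of dormant seeds, from 4.79, 4.73 and 5.16 to 4.29, 3.71 and 4.24 (-0.82 ± 0.24, adjusted p = 0.0159). CB5-C fell there as well (-1.16 ± 0.22, adjusted p = 0.000152) and was the member that fell in polysomal RNA (-0.91 ± 0.25, adjusted p = 0.00886). Among the glucosinolate members, CYP81F4 rose in total RNA of dormant seeds (1.04 ± 0.37, limma, adjusted p = 0.0457). MYB34 rose in polysomal RNA of dormant seeds (1.5 ± 0.4, limma, adjusted p = 0.00731). No other glucosinolate member was called with time in dormant seeds.

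At 24 h in water 95 of the 100 members were higher in non-dormant than in dormant seeds in polysomal RNA and none was lower. Over all probe sets 10.3% were higher and 8.13% lower, and 385 (66.2%) of the other rising probe sets were higher. The rule chose members for a high 24 h level in water in total RNA of non-dormant seeds. A higher level in non-dormant seeds was therefore favoured by the choice, also for the other rising probe sets. The non-dormant arrays also serve the comparisons with time and with cordycepin above. The median difference was 2.89 for the members and 1.05 for the others, and the non-dormant arrays all lay above the dormant ones for 95 members, for 83.3% of the others and for 18.8% of all probe sets. scpl44 measured 10.47, 10.37 and 9.88 in non-dormant and 3.15 and 3.21 in dormant seeds (7.06 ± 0.38, SE, adjusted p = 2.39e-16). XTH31 followed with 8.95, 9.15 and 8.28 against 2.77 and 3.22 (5.80 ± 0.33, adjusted p = 4.93e-16), and then PME3 (5.16 ± 0.32), SAUR3 (5.12 ± 0.47) and IGMT5 (5.11 ± 0.35). The dormant means of PME3 (2.75) and SAUR3 (2.86) were near background, as were those of 14 members in all, so these differences and their order are not exact. All 8 seed maturation markers were called lower in non-dormant seeds (median -1.68), with summed levels of 77.44 to 80.35 against 92.38 to 93.20 in dormant seeds, and their part in the result was not tested. The 5 that did not pass were NDB1 (-0.06), SRF8 (0.36), AT1G31150 (0.47), AT2G25980 (0.49) and AT1G19376.

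Few members already differed at 6 h. In polysomal RNA in water 11 were higher in non-dormant seeds and none lower. The background was 2.3% higher and 2.19% lower, and 39 of the other rising probe sets were higher. SAUR3 led with 4.96, 4.28 and 5.93 in non-dormant seeds, and its difference was 2.20 ± 0.42 (SE, adjusted p = 0.000592). LTPG2 followed at 1.6 ± 0.33 (adjusted p = 0.00174), and GSTU20, LACS2, DIN10, MAP65-2, PME44, FAR1, AT1G09200, AT5G63500 and AT1G53542 lay between 0.81 and 1.37. The count was 5 to 10 when 1 array was left out and 4 with only the compared arrays in the fit.

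Imbibed in cordycepin, 82 members were still higher in non-dormant than in dormant seeds at 24 h in polysomal RNA and none was lower. The background was 7.7% higher and 5.86% lower over all probe sets, and 362 (62.2%) of the other rising probe sets were higher. The median difference was 1.98, and 1.12 for the others, and the comparison shares its non-dormant arrays with the cordycepin comparison above. All rising probe sets were chosen for their level and rise in non-dormant seeds. The 8 seed maturation markers were all called lower here too (median -1.10), with sums of 84.28 to 84.95 against 91.45 to 94.45. The largest differences were those of scpl44 (4.25 ± 0.42), PME3 (3.98 ± 0.35), G-TMT (3.84 ± 0.31) and PYK10 (3.67 ± 0.40, adjusted p = 1.08e-08). CYP79B2 did not differ detectably in the drug (0.36 ± 0.30, adjusted p = 0.553), where it measured 3.97 and 3.95 in non-dormant and 3.58 and 3.62 in dormant seeds.

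In dormant seeds at 24 h cordycepin lowered few members. In total RNA 8 of the 100 were lower than in water and none was higher (limma, adjusted p under 0.05), beside 0.456% of all probe sets called lower and 0.697% higher, and 45 (7.73%) of the other rising probe sets called lower. They were AT1G19376 and AT1G55200 (-1.6 each), HB31 (-1.49), LCR69 (-1.44), RIP2 (-1.40), GSTU20 (-1.11), CRT1a (-1.08) and NDB1 (-0.94). The median over the members was -0.36, and -0.34 over the other rising probe sets. LCR69 measured 8.24, 8.63 and 8.44 in water and 7.03, 7.34 and 6.62 in cordycepin (-1.44 ± 0.30, SE, adjusted p = 0.0063). HB31 measured 4.61, 3.62 and 4.23 against 2.73, 2.84 and 2.41, the latter near background (-1.49 ± 0.28, adjusted p = 0.00255). All 8 also rose with time in these seeds, a comparison that shares the water arrays. The count was 0 with only the compared arrays in the fit, 17 with array weights, 4 without replicate 2 of the water group, and 2 without replicate 3 of the water or of the cordycepin group.

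In polysomal RNA of dormant seeds, with 2 arrays a group, cordycepin minus water had a median of -0.23 over the members. GSTU20 and RPA70D were lower (0.223% of all probe sets were) and scpl44 was higher (0.155% of all probe sets were). Of the 582 other rising probe sets 12 (2.06%) were lower and none was higher, with a median of -0.29. GSTU20 measured 5.90 and 6.53 in water and 4.98 and 5.04 in cordycepin. RPA70D measured 4.69 and 4.68 against 3.19 and 2.40 (-1.89 ± 0.38, adjusted p = 0.0113). scpl44 measured 3.15 and 3.21 in water and 5.80 and 5.10 in cordycepin (2.27 ± 0.42, adjusted p = 0.0048). With only the compared arrays in the fit, and without replicate 2 of either group, no member was called lower.

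The interaction, cordycepin minus water in non-dormant seeds less the same in dormant seeds, tested in polysomal RNA at 24 h whether the response differed between the 2 kinds of seed. It called 8 members lower and none higher. The members were chosen for a negative cordycepin minus water difference in total RNA of non-dormant seeds, so negative values were favoured by the choice. Total and polysomal RNA may come from the same bulks, and the part of the choice in this count was not tested. Over all probe sets 0.097% were lower and 0.0827% higher, none of the other rising probe sets was lower, and the members' median was -0.74. The count was 13 with the replicate block within RNA type, 5 with the filter at a mean of 4 and 4 with only the compared arrays in the fit. The 8 were PBP1 (-3.49 ± 0.37, SE, adjusted p = 5.22e-07), PLAT2 (-3.58 ± 0.50), AT5G45670 (-3.30 ± 0.62), scpl44 (-2.81 ± 0.57), XTH31 (-2.80 ± 0.48), CAD9 (-2.68 ± 0.44), CYP79B2 (-2.44 ± 0.41) and CB5-C (-1.86 ± 0.37), with adjusted p up to 0.0165. Their water levels in dormant seeds were low, between 2.57 and 3.75 as group means, which leaves little room above background for a fall. For PLAT2, XTH31 and scpl44 part of the interaction came from a higher dormant level in cordycepin than in water (1.47, 1.09 and 2.27). Of these 3 dormant responses that of scpl44 passed the test.

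In non-dormant seeds at 24 h in water, polysomal minus total RNA had a median of 0.13 over the members (-1.40 to 1.44) and 0.04 over all probe sets, values that include arrays of the rule and carry no test. The polysomal arrays all lay under the total arrays for 17 members and all above them for 28, beside 16.6% and 17.3% of all probe sets. PME3 (-1.40), AT1G19376 (-1.22) and CRT1b (-1.03) were lowest. SAUR3 (1.44), CB5-C (1.15), AT4G39150 (1.13), PBP1 (1.07) and MYB34 (1.06) were highest.

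All 100 members matched a locus of the RefSeq gene table of assembly TAIR10.1, 68 of them with a symbol, and 99 were annotated as protein coding. The median gene span was 2633 bases for the members, 2340 for the other rising probe sets and 2088 for all probe sets, given as a description. Several members are neighbours. AKN2 lies next to CYP79B2, AT1G09200 next to CRT1b, and AT5G45650 and AT5G45670 are 1 gene apart. AT4G37409 overlaps CYP81F4, and their polysomal differences were -1.14 and -1.81 (adjusted p = 0.0212 and 0.00799). In all, 30 members overlap another annotated gene, among them FAR1, PYK10, IGMT5, G-TMT and ROS4, and no source used here says whether the probes of a pair separate the 2 genes.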

How the data were processed

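Gene expression was measured on 45 arrays of total and polysomal seed RNA, grouped by their titles. The labels conflict in places: the treatment protocol speaks of dry seeds, and total RNA is given as the molecule of the polysomal arrays too. Titles and characteristics were followed. The deposited values are log2 expression made by the authors with RMA, per the submitters' processing notes. RMA corrects background, normalizes and combines probes into probe sets, and the deposited arrays still differed in their medians. No version, array type or probe set definition is given in the sources used here. The values were used as deposited, and a difference is relative to the average transcript of an array.

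The main model, with limma 3.58.1 (R 4.3.3 and its package data.table, version 1.17.8), estimated 16 group means from all 45 arrays, with 29 residual degrees of freedom, a prior of 6.392 and a prior SD of 0.294. Figures and counts used Python 3.11.15 with pandas 2.3.3, numpy 2.4.6 and matplotlib 3.10.9. All groups share 1 estimate of the spread, so p-values do not measure the spread of the compared bulks alone. Moderated tests were adjusted by Benjamini-Hochberg over all 27827 probe sets within each of 13 comparisons, and a call is an adjusted p under 0.05. Another 6 comparisons hold some of the 9 arrays that chose the members and were described only. The script was tested on simulated data.

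The members, the lists, the comparisons and the rule for named genes were chosen with earlier results of these data known, and role groups were assigned to 54 members after membership was known. Named genes are the 12 lowest ranks, those around the rank limit, family members, the 3 lowest and 3 highest of each comparison and up to 6 members not called in polysomal RNA, with further role group members named beside them after their values were seen. Families were matched by locus or on symbols and synonyms, 27241 probe sets having a match. Planned promoter and protein features were not computed. Alternatives were other normalizations, a filter at a mean of 4, trend and robust estimation, array weights, replicate blocks, the compared arrays alone and leaving out each array.

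Same-numbered arrays correlated in their deviations at -0.009 to 0.063 in total RNA (median 0.026) and at 0.006 to 0.492 in polysomal RNA (median 0.312). All 3 pairs of the polysomal change with time in non-dormant seeds in water were over 0.1 (0.148, 0.392 and 0.492). The numbers were taken to pair arrays there, from this check and not from the labels, and elsewhere not. The values given for that comparison still come from the main model, which holds no replicate block, so they are unpaired. A replicate block, fitted as an alternative, kept all 100 calls of that comparison. Both pairs were also over 0.1 in polysomal RNA for cordycepin at 24 h in non-dormant (0.24 and 0.386) and dormant seeds (0.311 each). The same held for the change with time in cordycepin in non-dormant seeds (0.116 and 0.265) and for dormancy in cordycepin (0.34 each). These comparisons passed the same limit but were not taken as paired.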

Additional observations from a re-analysis of the deposited data

Results flagged for a closer look

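In polysomal RNA at 24 h the response to cordycepin differed between non-dormant and dormant seeds for 8 members by the interaction test of limma, and for 4 to 13 under the alternatives. The log2 interaction was -3.49 for PBP1, -3.58 for PLAT2, -3.30 for AT5G45670, -2.81 for scpl44, -2.80 for XTH31, -2.68 for CAD9, -2.44 for CYP79B2 and -1.86 for CB5-C. The responses in non-dormant and dormant seeds were -3.77 and -0.28 for PBP1, -2.60 and -0.15 for CYP79B2, -2.02 and -0.16 for CB5-C, -2.99 and 0.32 for AT5G45670, and -2.24 and 0.44 for CAD9. They were -2.11 and 1.47 for PLAT2, -1.70 and 1.09 for XTH31, and -0.55 and 2.27 for scpl44. The members were chosen by their response in total RNA of non-dormant seeds. The part of this choice and of low dormant levels in these values was not tested.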

How the results depend on the processing

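Of 775 values recomputed under the alternatives, 646 kept their direction and size class, 116 moved, 5 lost and 8 gained a call, and 0 reversed. Quantile normalization moved the median rise in polysomal RNA of non-dormant seeds to 3.21 in water and 2.32 in cordycepin, that of dormant seeds to 0.55, the dormancy differences at 24 h to 2.73 in water and 1.76 in cordycepin and the interaction to -0.82. It called 0 members for cordycepin in dormant polysomal RNA, 2 at 6 h in dormant total RNA and 4 for dormancy at 6 h. Cyclic loess gave 3.35, 2.48 and 0.59 for the rises, 1.91 for dormancy in cordycepin and 1 call for cordycepin in dormant polysomal RNA. The filter at a mean of 4, which tests fewer probe sets and leaves fewer members, gave medians of 0.58 and 0.75 for the dormant rises in total and polysomal RNA, -0.33 for cordycepin in dormant polysomal RNA and 2.76 for dormancy at 24 h, with 13 calls for cordycepin in dormant total RNA, 1 at 6 h there and 5 for the interaction. Array weights gave 17 calls for cordycepin in dormant total RNA, 1 in dormant polysomal RNA and 6 at 6 h in non-dormant polysomal RNA. Fewer arrays in the fit, the compared ones alone, gave 25 calls for cordycepin in non-dormant polysomal RNA, 0 in dormant total and 0 in dormant polysomal RNA, 4 for dormancy at 6 h and 4 for the interaction. With a level limit of 5 or 7 in place of 6, 64 or 51 of the members were chosen again. The cause of the moves under normalization and weights was not tested.

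With the replicate number as a block over all arrays 46 members were called lower in cordycepin in non-dormant polysomal RNA, and with a replicate block within RNA type 47. The latter gave 4 calls for cordycepin in dormant polysomal RNA, 2 and 1 at 6 h in non-dormant polysomal and dormant total RNA, and 13 for the interaction. The rise in polysomal RNA in water, whose arrays were taken as pairs, kept 100 calls under both.

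Leaving out 1 array at a time gave 21 to 41 calls and medians from -1.14 to -1.04 for cordycepin in non-dormant polysomal RNA. For the rise there it gave 99 to 100 calls and medians from 3.30 to 3.44, and in cordycepin 88 to 93 calls and 2.53 to 2.60. In dormant seeds the rise had 24 to 30 calls and medians of 0.41 to 0.60 in total RNA, and 34 to 40 calls and 0.64 to 0.72 in polysomal RNA. Cordycepin in dormant seeds gave 2 to 7 calls and -0.39 to -0.37 in total RNA, and 0 to 2 calls and -0.40 to -0.18 in polysomal RNA. At 6 h there were 0 calls throughout, with medians of -0.28 to -0.16 in non-dormant polysomal and -0.071 to 0.080 in dormant total RNA. Dormancy in polysomal RNA gave 90 to 95 calls and 2.82 to 3.0 at 24 h, 5 to 10 calls and 0.21 to 0.28 at 6 h, and 69 to 74 calls and 1.90 to 2.05 in cordycepin. The interaction gave 6 to 9 calls and -0.86 to -0.64, and 86 to 98 of the members were chosen again. Where this leaves 1 array in a group, that array is assumed to vary like the other groups.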
